A study of Mus musculus with 6 samples.

Results

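Chemokines and chemokine receptors were examined in colonic crypts of a mouse model of Lynch syndrome after treatment with the EZH2 inhibitor GSK503. The members were all genes of the deposited table whose symbol begins with Ccl, Cxcl, Ccr or Cxcr and a number, together with *Cx3cl1*, *Cx3cr1*, *Xcl1* and *Xcr1*. This rule found 42 of 18049 genes, of which 28 encode ligands and 14 encode receptors, and it used no measured value. Other genes of the family, such as *Ccl19*, *Ccl3*, *Cxcr1* and *Cxcr2*, were not analysed here.

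All mice carried Cre recombinase under the *Villin* promoter, which is active in intestinal epithelium and confines the conditional deletion of the model to it, and a knock-in of *TgfβRII* humanized to hold a run of 11 adenines, on a C57BL/6J background. Both groups received a Western-style diet from 8 weeks of age. The 3 treated mice had GSK503 at 200 μg/kg injected into the tail vein for 9 weeks, and the 3 control mice had 20% captisol in PBS, the vehicle, by the same route. The age at which treatment began is not given in the sources used here. Total RNA from the crypts of each mouse gave 1 library.

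Chemokines are small secreted proteins that bind G protein-coupled receptors on leukocytes and guide their migration along a gradient. In the intestine, epithelial cells make a small set of them. CCL25 and CCL28 draw lymphocytes that carry CCR9 and CCR10 into the mucosa, CCL20 draws CCR6-bearing dendritic cells and lymphocytes to lymphoid follicles, and the transmembrane chemokines CX3CL1 and CXCL16 can hold cells at the epithelial surface. Stromal and lymphatic cells make others, such as CXCL12, CXCL13 and CCL21, and the receptors of the family are carried mostly by leukocytes.

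Values were estimated counts scaled to a common library size by the TMM method, here called TMM-scaled CPM, and each log2 fold change (log2FC) is GSK503-treated minus control, computed on log2(value + 0.1), so that changes of low genes come out too small. Estimated totals lay between 108162848 and 135085027 counts per library, so that 3 counts were worth between 0.0228 and 0.0271 TMM-scaled CPM, a floor that covers counting error only. The average of log2(value + 0.1) over 9 epithelial markers lay between 10.25 and 10.54 in all 6 mice. *Xist* was higher and all 4 Y-linked genes listed were lower in treated mice, with no overlap between the groups (adjusted p below 0.05 for all 5 in limma), so that sex and treatment cannot be told apart for any gene described here.

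At the level of the whole family, few members differed between the groups. Of the 42 members, 39 passed the filter of at least 0.1 in at least 3 mice, and *Ccr6*, *Ccr7* and *Cxcl3* did not. None of the 39 reached an adjusted p below 0.05 in limma with Benjamini-Hochberg adjustment over 16670 genes, where the share over all genes tested was 0.642%. At an unadjusted p below 0.05 limma gave 5 members, which is 12.8% against 13.3% of all genes. limma-voom on the estimated counts also gave 0 members at an adjusted p below 0.05. At the looser adjusted p below 0.1, 3 of 39 members passed, *Ccl28* and *Ccl25* lower and *Ccl9* higher, which is 7.69% against 1.97% of all genes. By direction, 2 members were lower (5.13%, against 0.558% of all genes) and 1 was higher (2.56%, against 1.41%). limma-voom gave the same number, 3, at this threshold. The groups did not overlap for 6 of 39 members (15.4%, against 19.1% of all genes), and for each of these 6 an exact two-sided permutation test over the mice gave p = 0.1, the smallest that 3 mice against 3 allow. The log2FC was below 0 for 27 of 39 members (69.2%, against 51.1% of all genes), with a median of -0.22 over the members and -0.01 over all genes tested.

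**Figure D1:**
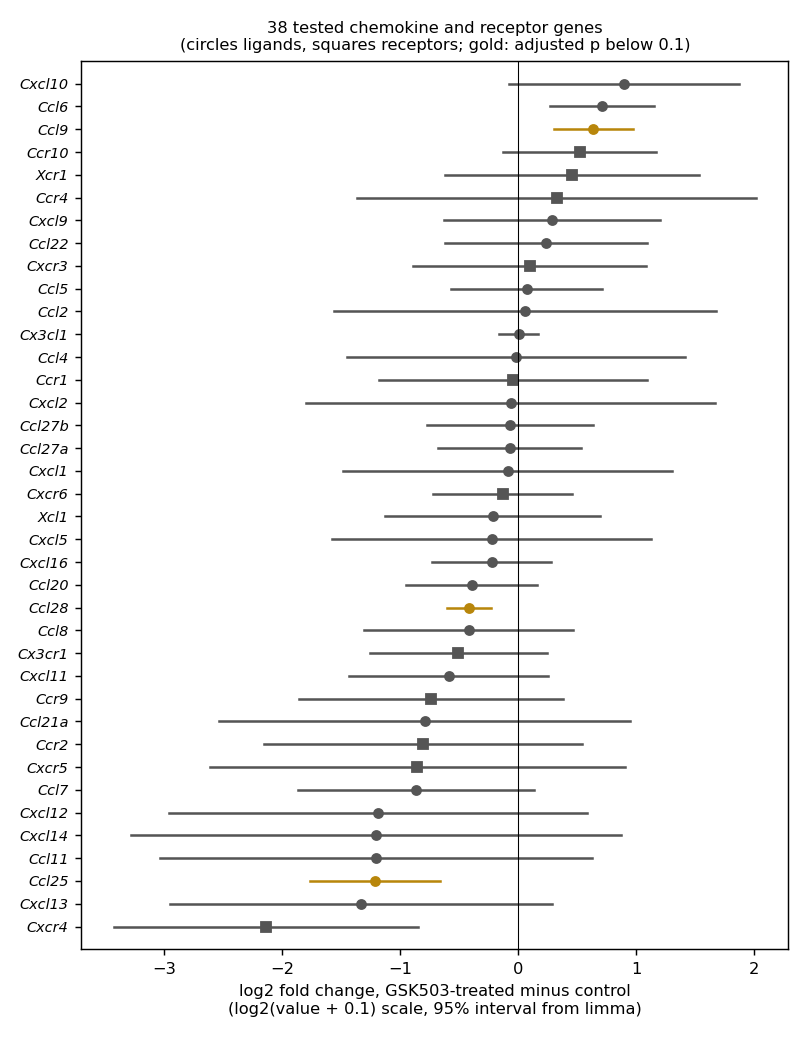
The log2FC (GSK503-treated minus control, log2(value + 0.1) scale) of 38 of the 39 tested members is plotted as circles for ligands and squares for receptors, with the 95% interval from limma (n = 3 mice per group). The members with an adjusted p below 0.1, *Ccl9* to the right of 0 and *Ccl28* and *Ccl25* to the left, are in gold, and the intervals of *Ccl6* and *Cxcr4* also lie on one side of 0.

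Levels differed widely within the family. Only 5 ligands had a mean of at least 10 TMM-scaled CPM over the 6 mice, namely *Ccl6*, *Ccl28*, *Cx3cl1*, *Ccl25* and *Ccl9*, and no receptor did. The means just inside this bound were 24.7 for *Ccl9* and 24.8 for *Ccl25*, and those just outside it were 6.99 for *Cxcl9* and 6.50 for *Cxcl16*. Per kilobase of all annotated exons, *Ccl6* was highest at a mean of 94.1 TMM-scaled CPM, followed by *Ccl28* at 32.8, *Cx3cl1* at 12.2, *Ccl9* at 7.94 and *Ccl20* at 3.66. The order depends on the length used for *Ccl25*. With 12.5 kb of annotated exons it came to 1.97 per kb, and with its canonical transcript of 0.902 kb to 27.4 per kb, which is lower only than *Ccl6* and *Ccl28*. The 15 members at 1 or more per kb of annotated exons held 13 ligands and the receptors *Cxcr6* and *Ccr10*.

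**Figure D2:**
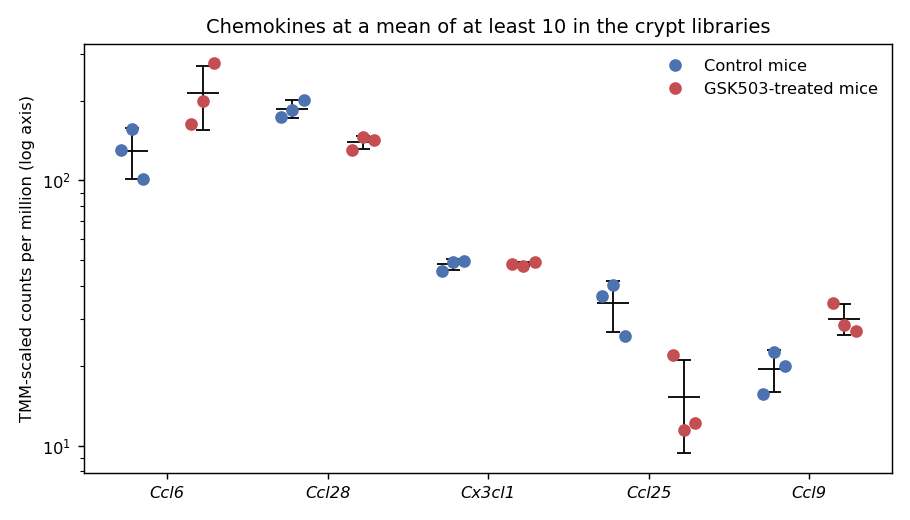
TMM-scaled CPM on a log axis for the 5 members with a mean of at least 10, with 1 point per mouse (blue control, red GSK503-treated) and black bars for the mean and SD of 3 mice. *Ccl28* and *Ccl25* are lower and *Ccl6* and *Ccl9* higher in all treated mice than in all controls, and *Cx3cl1* lies between 45.7 and 49.8 in all 6.

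*Ccl28* encodes the chemokine that draws IgA plasma cells, which carry CCR10, into the colon and other mucosae, and its protein is also known to act on bacteria. The gene lies on chr13:120085355-120115895 of GRCm39, on the plus strand. Its values were 172.8, 183.8 and 201.6 TMM-scaled CPM in controls 1, 2 and 3, against 130.1, 145.3 and 142.5 after GSK503, and values by mouse are given in this order throughout. All treated mice lay below all control mice, with means of 186.1 ± 14.6 and 139.3 ± 8.10 (SD, n = 3). The log2FC was -0.42 with an SE of 0.08 and a 95% interval from -0.60 to -0.23, or 0.749-fold (adjusted p = 0.0598 in limma). With 1 mouse left out at a time the log2FC lay between -0.47 and -0.36, and the adjusted p was below 0.1 without control mouse 1 (0.0752) and without GSK503-treated mouse 3 (0.0695) and above it in the other cases, up to 0.226 without GSK503-treated mouse 2. These are bulk libraries, in which fewer cells of a type and less RNA per cell cannot be told apart.

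*Ccr10*, the receptor of CCL28 on plasma cells and some T cells, was low. It had 1.38, 1.13 and 2.09 TMM-scaled CPM in controls and 1.96, 2.05 and 2.57 in treated mice. The groups overlapped, and the log2FC was 0.52 (95% interval -0.13 to 1.17, adjusted p = 0.483 in limma). Its sign was the opposite of that of *Ccl28*. Plasma cell markers averaged 1.14, 1.88 and 0.77 in controls and -1.26, -1.41 and 1.48 in treated mice as log2(value + 0.1), so that their order over the mice was not that of *Ccr10*.

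*Ccl25* encodes the ligand of CCR9, the gut-homing receptor of T cells, and is best known from the small intestine and thymus. It had 36.8, 40.3 and 25.9 TMM-scaled CPM in controls and 21.9, 11.4 and 12.2 in treated mice. The groups did not overlap, and their means were 34.3 ± 7.47 and 15.2 ± 5.84 (SD, n = 3). The log2FC was -1.21 with an SE of 0.25 and a 95% interval from -1.76 to -0.66, or 0.432-fold (adjusted p = 0.0655 in limma). Leaving out GSK503-treated mouse 1, the highest of the treated mice, gave an adjusted p of 0.00996, and leaving out GSK503-treated mouse 2, the lowest, gave 0.264. The adjusted p was also above 0.1 without control mouse 1 (0.175) and without control mouse 2 (0.172), and with robust empirical Bayes (0.138). *Ccr9* had 0.749, 1.94 and 2.01 TMM-scaled CPM in controls and 0.431, 0.775 and 1.59 in treated mice. Its groups overlapped (log2FC -0.74, 95% interval -1.86 to 0.38, adjusted p = 0.565 in limma).

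For *Ccl25*, 2 starts were examined, the canonical one of GENCODE and an internal one of RefSeq. They lie 24390 bases apart on the plus strand of chromosome 8. The annotated span of the gene begins before both, at base 4374661, so that they are not its only annotated starts. The upstream one opens head to head with *Elavl1*, whose exons share 604 bases with those of *Ccl25* on the opposite strand. *Elavl1*, an RNA-binding protein gene, had a log2FC of -0.12 (adjusted p = 0.562 in limma). The library kit keeps strand, but whether reads were counted by strand was not checked. The part of *Elavl1* reads in the values of *Ccl25* was not tested. The 250 bases before the upstream start were 74.8% G and C. The internal start is in RefSeq, and the 250 bases before it, taken from RefSeq's promoter table and matched letter for letter to GRCm39, were 51.6% G and C. These bases and those before the start of *Ccl28* are shown because they belong to the 2 members with an adjusted p below 0.1 that were lower in treated mice. Capitals mark TATAAA, the letters of a TATA box, and TTTATG, a half-site of the intestinal factor CDX, on either strand. The gene-level values do not tell the 2 *Ccl25* starts apart.

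Ccl25, internal start, chr8:4399338-4399587, plus strand: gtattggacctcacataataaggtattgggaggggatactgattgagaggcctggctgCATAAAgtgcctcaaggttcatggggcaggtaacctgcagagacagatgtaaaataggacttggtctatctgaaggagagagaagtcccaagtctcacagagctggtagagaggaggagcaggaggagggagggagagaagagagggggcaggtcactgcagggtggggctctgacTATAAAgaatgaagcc
Ccl28, chr13:120085105-120085354, plus strand: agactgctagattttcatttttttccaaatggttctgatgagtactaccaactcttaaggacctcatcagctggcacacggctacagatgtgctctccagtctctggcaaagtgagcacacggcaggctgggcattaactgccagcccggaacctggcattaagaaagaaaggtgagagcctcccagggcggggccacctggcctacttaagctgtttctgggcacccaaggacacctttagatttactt

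The internal *Ccl25* start has TATAAA from 16 to 11 bases before it and TTTATG on the minus strand from 192 to 187 bases before it. Neither set of letters occurs in the window of *Ccl28*. Over 15449 promoters of the table's genes, 8.47% held TATAAA and 8.09% held TTTATG in the same window.

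The other mucosal ligands did not pass. *Cx3cl1*, which encodes fractalkine, had 45.7, 49.3 and 49.8 TMM-scaled CPM in controls and 48.3, 47.7 and 49.1 in treated mice. The 6 values lay close together, and the log2FC of 0.00 had a 95% interval from -0.16 to 0.17, the narrowest of the tested members in the plot of intervals (adjusted p = 0.985 in limma). Its receptor *Cx3cr1*, a marker of intestinal macrophages, had 0.814, 0.678 and 0.905 in controls and 0.398, 0.589 and 0.624 in treated mice. All treated mice lay below all control mice, yet the log2FC of -0.51 had a 95% interval from -1.26 to 0.24 (adjusted p = 0.556 in limma). *Ccl20* ranged from 3.14 to 6.47 (log2FC -0.40, adjusted p = 0.538 in limma) and *Cxcl16* from 4.34 to 8.19 (log2FC -0.23, adjusted p = 0.715 in limma), with overlapping groups. *Ccr6*, the receptor of CCL20, was not tested and had 0, 0.525 and 0.134 in controls and 0, 0.0478 and 0 in treated mice. *Cxcr6*, the receptor of CXCL16 on resident T cells, ranged from 2.17 to 3.85 (log2FC -0.13, adjusted p = 0.881 in limma). Of the 5 mucosal ligands, 4 thus had a log2FC below 0, with a median of -0.40.

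*Ccl6* and *Ccl9* were higher in all treated mice than in all controls, and only *Ccl9* had an adjusted p below 0.1. Both encode CC chemokines that act on myeloid cells through CCR1, and *Ccl9* is known from the epithelium over Peyer's patches. *Ccl6* had 130.6, 156.4 and 100.9 TMM-scaled CPM in controls and 163.1, 199.5 and 276.0 in treated mice. Its lowest treated value lay just above its highest control value, and the means were 129.3 ± 27.8 and 212.9 ± 57.6 (SD, n = 3). The log2FC was 0.71 with an SE of 0.20 and a 95% interval from 0.27 to 1.15, or 1.63-fold (adjusted p = 0.153 in limma). The adjusted p of *Ccl6* stayed above 0.1 in all 16 alternatives, with a range from 0.108 to 0.395.

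*Ccl9* had 15.6, 22.6 and 20.0 TMM-scaled CPM in controls and 34.6, 28.6 and 27.0 in treated mice. The groups did not overlap, with means of 19.4 ± 3.51 and 30.04 ± 4.02 (SD, n = 3). The log2FC was 0.64 with an SE of 0.15 and a 95% interval from 0.30 to 0.97, or 1.56-fold (adjusted p = 0.0967 in limma). With a mouse left out, the adjusted p of *Ccl9* was below 0.1 without GSK503-treated mouse 3 (0.0810) and above it in the 5 other cases, up to 0.321 without GSK503-treated mouse 2. It was below 0.1 in 7 of all 16 alternatives, and pseudocounts of 0.01 and 1 gave 0.103 and 0.112. *Ccr1* had 2.16, 0.407 and 1.62 in controls and 1.11, 1.15 and 1.09 in treated mice (log2FC -0.05, adjusted p = 0.980 in limma). The treated mice were close together and the control mice were not.

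Markers of goblet cells, like *Ccl6* and *Ccl9*, were higher in treated mice. A list of 9 goblet cell genes, written after values of these data had been seen, averaged 9.21, 8.91 and 8.72 in controls and 10.07, 10.33 and 10.27 in treated mice as log2(value + 0.1). All 9 were higher, where 51.1% of all genes tested had a log2FC below 0. Of the 9, 5 had an adjusted p below 0.05 in limma, among them *Reg4*, against 0.642% of all genes tested. Because the values were known when the list was written, these counts are no test of goblet cell genes. Within each group the order of the mice was not that of *Ccl6* or *Ccl9*, and control mouse 1 had the highest goblet average and the lowest *Ccl9*. A list of 8 absorptive colonocyte genes, added with it, averaged 7.74, 7.47 and 7.59 in controls and 7.88, 7.88 and 7.59 in treated mice, with overlapping groups. The 10 macrophage markers averaged 1.55, 1.92 and 1.56 in controls and 0.30, 0.22 and 2.27 in treated mice. The part of goblet cells and macrophages in the values of *Ccl6* and *Ccl9* was not tested.

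Both genes lie on the minus strand of chromosome 11, *Ccl9* at chr11:83463745-83473161 and *Ccl6* at chr11:83478708-83483913. The 5′ ends of these annotated spans are 10.8 kb apart, and all distances given here are between such ends. Of the other genes of the table with a 5′ end within 300 kb of that of *Ccl6*, 13 were tested. Their log2FC lay between -0.76 and 0.07, and 10 of 13 were below 0, against 51.1% of all genes tested. None had an adjusted p below 0.1, a bound that 1.97% of all genes tested passed. The T cell-attracting *Ccl5*, 58.0 kb away, had a log2FC of 0.07 (adjusted p = 0.945 in limma), and *Ccl4*, 69.5 kb away on the other side, had -0.02 (adjusted p = 0.993 in limma). Differences from *Ccl6* and *Ccl9* were not tested, and the 95% intervals of some low neighbours reached their size, such as -0.57 to 0.71 for *Ccl5*.

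**Figure D3:**
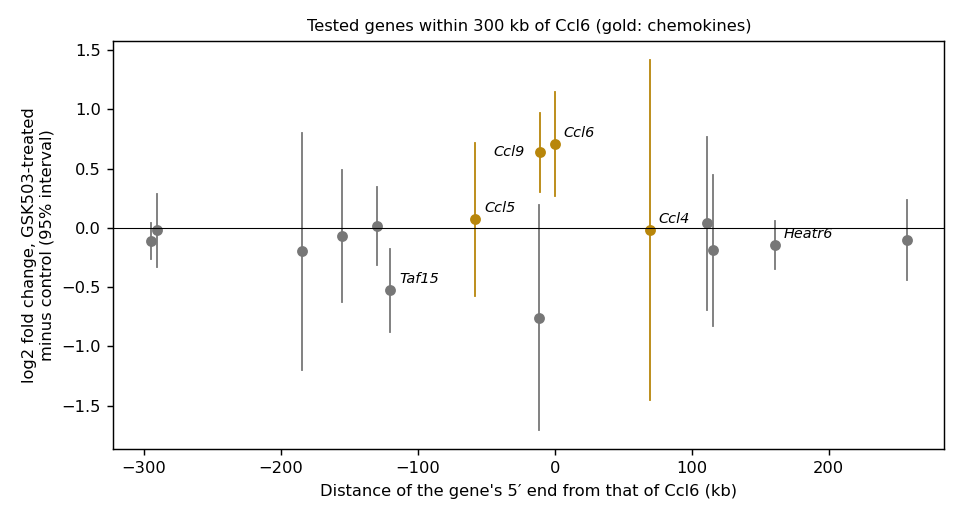
The log2FC with its 95% interval from limma (n = 3 mice per group) is plotted against the distance in kb of each tested gene's 5′ end from that of *Ccl6*, with chemokines in gold. *Ccl9* and *Ccl6* lie at 0.64 and 0.71, and the 13 other genes between -0.76 and 0.07.

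The 250 bases before the canonical starts of *Ccl6* and *Ccl9* are shown because these neighbours were higher in the same mice. They come from the GRCm39 genome with GENCODE starts and are given 5′ to 3′ on the strand of the gene. The canonical start of *Ccl9* lies inside its annotated span, not at the 5′ end used for the distances. Capitals mark TATAAA and GGGNNTTTCC, the letters of an NF-κB site, on either strand.

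Ccl6, chr11:83483914-83484163, minus strand: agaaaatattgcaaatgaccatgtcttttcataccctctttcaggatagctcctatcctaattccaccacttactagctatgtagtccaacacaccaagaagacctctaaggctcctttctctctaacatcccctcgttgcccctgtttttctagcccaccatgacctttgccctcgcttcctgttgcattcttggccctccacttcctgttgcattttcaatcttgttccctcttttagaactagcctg
Ccl9, chr11:83469468-83469717, minus strand: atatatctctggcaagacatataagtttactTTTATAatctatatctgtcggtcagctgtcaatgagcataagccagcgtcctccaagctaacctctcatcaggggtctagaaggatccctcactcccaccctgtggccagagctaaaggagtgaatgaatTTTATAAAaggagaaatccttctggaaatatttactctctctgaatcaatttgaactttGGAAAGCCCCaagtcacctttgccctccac

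The *Ccl9* window holds TATAAA letters in 2 places and an NF-κB sequence on the minus strand from 30 to 21 bases before the start, and the *Ccl6* window holds neither.

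The other myeloid-attracting CC ligands were low. *Ccl2* ranged from 0 to 0.399 TMM-scaled CPM, with a log2FC of 0.06. *Ccl7* had a log2FC of -0.87, *Ccl8* of -0.42 and *Ccl11*, the eosinophil-attracting eotaxin, of -1.21, and the adjusted p of these 4 genes lay at 0.449 or above in limma. Among the T cell-attracting ligands, the log2FC was 0.07 for *Ccl5*, -0.02 for *Ccl4*, 0.24 for *Ccl22*, -0.07 for *Ccl27a*, -0.07 for *Ccl27b* and -0.22 for *Xcl1*, and none passed. *Ccl27a* and *Ccl27b* are near-identical copies, and the value of the first was 2 times that of the second in each of the 6 mice to 3 decimals, so that the reads of the pair were shared out by the counting and the 2 genes cannot be told apart. *Ccl21a* also has near-identical copies that the annotation names, such as *Ccl21b*, and its values are uncertain for the same reason.

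The interferon-inducible ligands *Cxcl9*, *Cxcl10* and *Cxcl11* bind CXCR3 on activated T cells. *Cxcl9* had 5.43, 5.37 and 6.22 TMM-scaled CPM in controls and 4.31, 4.87 and 15.7 in treated mice. *Cxcl10* had 0.807, 1.77 and 0.724 in controls and 1.36, 1.62 and 3.53 in treated mice. GSK503-treated mouse 3 was the highest of the 6 for both and the lowest of the 6 for *Cxcl11*, at 1.14. Their log2FC was 0.29, 0.90 and -0.59, with adjusted p-values of 0.814, 0.420 and 0.544 in limma. Without GSK503-treated mouse 3 the log2FC of *Cxcl9* was -0.30 and that of *Cxcl10* was 0.50. *Cxcr3* ranged from 0.322 to 1.13 (log2FC 0.10, adjusted p = 0.951 in limma).

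The neutrophil-attracting ligands *Cxcl1*, *Cxcl2*, *Cxcl3* and *Cxcl5*, which act through CXCR2, were low. *Cxcl1* ranged from 0.114 to 1.09 TMM-scaled CPM and *Cxcl2* from 0 to 0.645. *Cxcl5* was at most 0.244, and *Cxcl3* was at 0 in 4 of 6 mice. The log2FC of the 3 tested genes lay between -0.23 and -0.06, with 95% intervals that reached beyond 1 in either direction, so that changes of that size were not detectable at these levels.

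These ligands and several others carried NF-κB letters near their starts. GGGNNTTTCC on either strand was in the 250 bases before the start of 9 of 42 members, against 1.53% of 15449 promoters. The short windows are shown, with every match in capitals, because they belong to ligands of several roles. They are printed 5′ to 3′ on the gene's strand, so that GGAAANNCCC is the same motif read on the other strand.

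Ccl2, chr11:81926231-81926280, plus strand: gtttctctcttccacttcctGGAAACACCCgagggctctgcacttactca
Ccl5, chr11:83421405-83421454, minus strand: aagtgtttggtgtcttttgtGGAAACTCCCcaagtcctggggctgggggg
Ccl20, chr1:83094387-83094436, plus strand: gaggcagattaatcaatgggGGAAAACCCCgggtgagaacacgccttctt
Cxcl1, chr5:91039013-91039062, plus strand: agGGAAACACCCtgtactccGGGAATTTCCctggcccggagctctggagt
Cxcl2, chr5:91051641-91051690, plus strand: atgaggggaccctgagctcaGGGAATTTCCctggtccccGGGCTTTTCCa
Cxcl3, chr5:90933867-90933916, plus strand: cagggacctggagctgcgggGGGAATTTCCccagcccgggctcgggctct
Cxcl5, chr5:90907109-90907158, plus strand: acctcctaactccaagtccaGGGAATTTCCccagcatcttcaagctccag

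*Cxcl1* and *Cxcl2* each hold 2 matches, both in the stretch shown, and *Ccl9* (printed above) and *Cxcr5* hold 1 each. The 4 neutrophil-attracting ligands share the same 10 letters. The 8 tested genes with a match had a log2FC between -0.85 and 0.64, with a median of -0.08, and *Ccl9* alone of them had an adjusted p below 0.1. A match describes these letters only. The 3 other motifs were in 9 of 42 members (TATAAA), 8 of 42 (TTTATG) and 4 of 42 (TTCNNNGAA, the letters of a STAT site, found in 6.69% of promoters).

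Ligands made by stromal, lymphatic and follicular cells were high in GSK503-treated mouse 3 and low in the other treated mice. *Cxcl12* guides cells that carry CXCR4, *Ccl21a* draws CCR7-bearing cells into lymphatics, *Cxcl13* organises B cell follicles, and *Cxcl14* is made by fibroblasts. *Ccl21a* had 2.65, 4.57 and 2.29 TMM-scaled CPM in controls and 1.01, 0.550 and 8.04 in treated mice. *Cxcl12* had 1.51, 2.24 and 0.897 in controls and 0.153, 0.327 and 2.85 in treated mice. For both genes GSK503-treated mouse 3 lay above every other mouse and GSK503-treated mice 1 and 2 below every control mouse. All 4 had a log2FC below 0, with a median of -1.20 and a range from -1.33 to -0.79, and none passed (adjusted p from 0.473 to 0.711 in limma).

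GSK503-treated mouse 3 was the highest treated mouse for 24 of 42 members, among them all 4 stromal and lymphoid-tissue ligands, and the highest of all 6 mice for 15. Without it, 8 of 38 members had an adjusted p below 0.1 in limma (21.1%, against 3.68% of all genes). *Ccl11*, *Ccl21a*, *Cxcl12*, *Cxcl14* and *Ccr2* were then added as lower to *Ccl25* and *Ccl28*, and *Ccl9* was higher (2.63%, against 2.16% of all genes). The 7 lower members were 18.4%, against 1.52% of all genes. The added members had their highest treated value in this mouse, so leaving it out could only lower their log2FC. The log2FC of *Cxcl12* was then -2.24 (adjusted p = 0.0611 in limma), that of *Ccl11* was -2.30 and that of *Ccl21a* was -1.88. No member reached an adjusted p below 0.05 without this mouse, where 1.33% of all genes did. Leaving out any other single mouse gave 0 to 2 members with an adjusted p below 0.1.

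The averages of marker lists of stromal cells and macrophages moved with these ligands, but not every gene did. The log2FC was below 0 for 5 of 7 fibroblast, 6 of 7 endothelial and 10 of 10 macrophage markers (51.1% of all genes). *Gsn* (fibroblast) and *Vwf* (endothelial) were higher in all treated mice than in all controls (adjusted p = 0.0690 and 0.0505 in limma). *Cd14* (macrophage) was lowest of the 6 mice in GSK503-treated mouse 3, at 49.2 TMM-scaled CPM. Smooth muscle markers averaged 1.42, 3.83 and 2.80 in controls and -0.81, -1.04 and 4.27 in treated mice as log2(value + 0.1). Fibroblast markers averaged 3.17, 3.66 and 3.31 in controls and 1.89, 2.15 and 4.30 in treated mice. As for *Cxcl12* and *Ccl21a*, GSK503-treated mouse 3 was the highest of the 6 for both lists and for endothelial and macrophage markers, and GSK503-treated mice 1 and 2 were the lowest. The lymphatic endothelial and dendritic cell lists also had GSK503-treated mouse 3 as the highest and GSK503-treated mice 1 and 2 as the lowest. Plasma cell markers averaged -1.26, -1.41 and 1.48 in treated mice. GSK503-treated mice 1 and 2 were thus the lowest for them too, and only control mouse 2 (1.88) lay above GSK503-treated mouse 3. The T cell and B cell lists did not have GSK503-treated mouse 3 as the highest. The part of these cells in the values of the ligands was not tested.

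**Figure D4:**
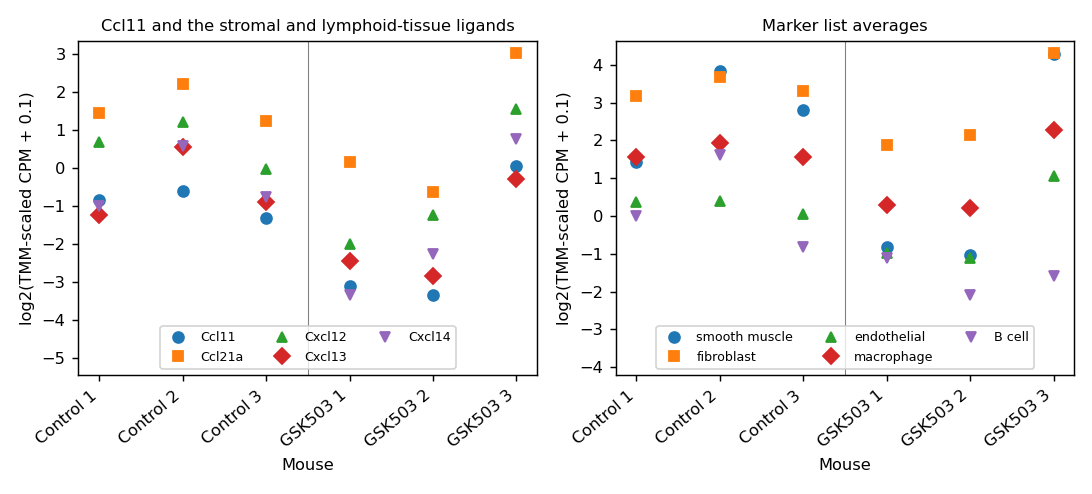
The left panel plots log2(TMM-scaled CPM + 0.1) of *Ccl11*, *Ccl21a*, *Cxcl12*, *Cxcl13* and *Cxcl14* in each mouse, and the right panel the average of the same measure over marker lists of 5 cell types. GSK503-treated mouse 3 is the highest treated mouse for all 5 ligands and for the smooth muscle, fibroblast, endothelial and macrophage lists, and the B cell list is lower in all 3 treated mice than in the control mice.

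Among the receptors, *Cxcr4*, the CXCL12 receptor found on B cells and many other leukocytes, had the log2FC farthest from 0 of the 12 tested. It had 1.63, 3.88 and 0.574 TMM-scaled CPM in controls and 0.212, 0.327 and 0.308 in treated mice. All treated mice lay below all control mice, whose own values spanned a wide range. The log2FC was -2.14 with an SE of 0.58 and a 95% interval from -3.43 to -0.85 (adjusted p = 0.142 in limma). Without control mouse 2, the highest, it was -1.51 (adjusted p = 0.280), and without control mouse 3, the lowest, it was -2.79 (adjusted p = 0.0625). limma-voom gave an adjusted p of 0.359.

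B cell markers were, like *Cxcr4*, lower in all treated mice than in all control mice. Over the control mice their order was that of *Cxcr4*, and over the treated mice it was the reverse. The list of 11 genes averaged -0.00, 1.61 and -0.83 in controls and -1.11, -2.09 and -1.58 in treated mice as log2(value + 0.1), with control mouse 2 the highest for both and no overlap between the groups. An exact two-sided permutation test over the 6 mice gave p = 0.1 for the list. *Ms4a1*, which encodes CD20, had a log2FC of -2.74 (adjusted p = 0.0875 in limma). *Cxcr5*, the follicle-homing receptor of B cells, had 0.213, 2.29 and 0.346 in controls and 0.687, 0.0876 and 0.283 in treated mice, so that control mouse 2 stood apart (log2FC -0.85, adjusted p = 0.686 in limma). *Ccr7*, which was not tested, had 0.563, 0.660 and 0.0472 in controls and 0.0763, 0.0717 and 0.0166 in treated mice. The part of B cells in these values was not tested.

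The receptors of effector T cells and myeloid cells did not pass. *Ccr4*, the receptor of CCL22, ranged from 0.00761 to 0.818 TMM-scaled CPM (log2FC 0.32, adjusted p = 0.900 in limma). The lowest value was that of control mouse 1, and without this mouse the log2FC of *Ccr4* was -0.71, with a pseudocount of 1 it was -0.03, and the treated mean (0.464) was below that of controls (0.547). *Ccr2*, which brings monocytes into tissue, had 0.814, 0.717 and 1.13 in controls and 0.246, 0.207 and 1.52 in treated mice (log2FC -0.81, adjusted p = 0.609 in limma), again with GSK503-treated mouse 3 the highest. *Xcr1*, the XCL1 receptor of cross-presenting dendritic cells, was at most 0.314 (log2FC 0.46, adjusted p = 0.734 in limma). Of the 12 receptors tested, 8 had a log2FC below 0, with a median of -0.28, and none had an adjusted p below 0.1. The values of 10 T cell markers summed to between 18.2 and 30.3 TMM-scaled CPM over the 6 mice, with overlapping groups.

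**Figure D5:**
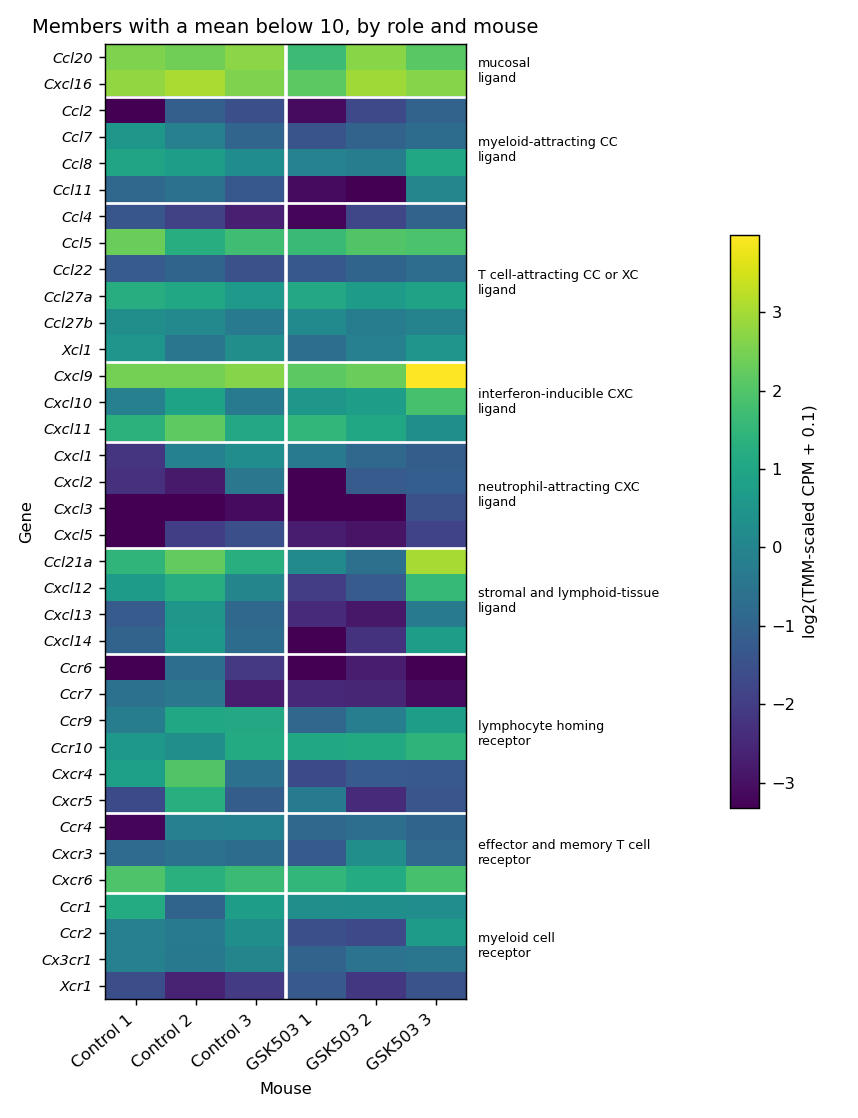
Colour gives log2(TMM-scaled CPM + 0.1) in each mouse for 36 of the 37 members with a mean below 10, grouped by role and separated by white lines, with control mice to the left of the vertical line. *Cxcl9* in GSK503-treated mouse 3 is the brightest cell. The stromal and lymphoid-tissue ligands are darker in GSK503-treated mice 1 and 2 than in the other mice. Of the neutrophil-attracting ligands, *Cxcl3* and *Cxcl5* are dark throughout.

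Genes that act with chemokines were counted on 7 lists of pathway genes. None reached an adjusted p below 0.05 in limma. Below 0.1 were 3 of 128 tested genes (2.34%, against 1.97% of all genes), of which *Ccl9* is itself a member, so that the share was near that of all genes. Of 10 tested chemokine-like ligands and their receptors, 7 had a log2FC below 0 and *Cmtm8*, a membrane protein of the CKLF-like family, was higher, with 1.83, 1.86 and 1.57 TMM-scaled CPM in controls and 3.14, 4.40 and 3.39 in treated mice (log2FC 0.999, SE 0.23, adjusted p = 0.0919). Of 37 genes of the NF-κB pathway, which induces many chemokines, 26 had a log2FC below 0, with a median of -0.08. *Nfkbiz*, an atypical NF-κB inhibitor protein gene, was lower, with 107.2, 117.3 and 136.0 in controls and 92.8, 88.5 and 79.2 in treated mice (log2FC -0.46, SE 0.10, adjusted p = 0.0801). Of 11 genes of M cells and follicle-associated epithelium, 4 had a log2FC above 0, and *Ccl9* alone had an adjusted p below 0.1.

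On the other lists no gene had an adjusted p below 0.1, and the one with the smallest p is given. Of 17 genes of the interferon pathway that induces *Cxcl9*, *Cxcl10* and *Cxcl11*, 9 had a log2FC above 0, with a median of 0.03 (*Stat2*, log2FC 0.22, adjusted p = 0.289 in limma). Of 35 tested genes that signal below chemokine receptors, 19 had a log2FC above 0, with a median of 0.02 (*Pik3r5*, log2FC 0.71, adjusted p = 0.168 in limma). Atypical receptors bind chemokines without G protein signalling. The list written for them and for decoy receptors had 5 tested genes, *Ackr2*, *Ackr3*, *Ackr4*, *Ccrl2* and *Pitpnm3*, and the last is not an established atypical receptor. Of these 5 genes, 4 had a log2FC below 0, *Pitpnm3* among them (*Ackr3*, log2FC 0.56, adjusted p = 0.547 in limma). Of 16 genes that shed, sulfate or cleave chemokines and receptors, 9 had a log2FC below 0 (*Hpse*, which encodes heparanase, log2FC -0.53, adjusted p = 0.153 in limma).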

How the data were processed

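Total RNA-Seq libraries (Illumina Stranded Total RNA Prep, paired-end 76 bp) of colonic crypts from 6 mice, 3 per group, were grouped by the sample labels. The authors used STAR for alignment (genome build GRCm39) and RSEM for estimated counts, scaled these with edgeR's TMM method and deposited the resulting signal. Any filter on genes before deposit is not given in the sources used here. Estimated counts were recovered from each library's smallest step (75.9% to 78.5% of values whole within 0.02) and used for totals and limma-voom.

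The members and gene lists were chosen with earlier results of these data known. limma (version 3.58.1, R 4.3.3) was fitted to log2(value + 0.1) of all 16670 genes with at least 0.1 in at least 3 mice, with an intensity trend and Benjamini-Hochberg adjustment, and was tested on simulated data. Named with every mouse's value were members with a mean of at least 10, those below it with an adjusted p below 0.1, an unadjusted p below 0.05, or groups apart with an absolute log2FC above 0.5, and their partner ligands or receptors; members whose result turned on 1 mouse were added after their values were seen. From each pathway list, genes with an adjusted p below 0.1 or the one with the smallest p were named. Of 18049 symbols, 17212 matched 1 gene of the GENCODE annotation. The exons of 16 members overlap another gene, 15 of them on the opposite strand alone. The values of 1 member are not reported here, though it is included in the counts. The limma p-values set the difference between the groups against the spread between mice, moderated over all genes. Alternatives were other scalings, pseudocounts, filters and variance models, limma-voom, a replicate block and leaving out each mouse. Tables were handled with pandas 2.3.3 and figures drawn with matplotlib 3.10.9.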

Additional observations from a re-analysis of the deposited data

How the results depend on the processing

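Scaling by library size alone moved the median log2FC of all genes from -0.01 to -0.12 and the share of higher genes among those with an adjusted p below 0.1 from 71.6% to 21.8%. It gave 2 members (*Ccl25* and *Ccl28*) at an adjusted p below 0.05 in place of 0, 261 of all genes in place of 107, 1016 in place of 328 below 0.1, and 12 pathway list genes in place of 3. The log2FC of *Cx3cl1* was then -0.11, as far below 0 as that of the median gene, and those of *Ccl6* (0.59) and *Ccl9* (0.52) stayed above 0. Without the intensity trend 0 members, 0 pathway list genes and 30 of all genes had an adjusted p below 0.1, and 16 of all genes were below 0.05. The replicate numbers did not pair the mice (correlations of same-numbered deviations 0.03, -0.13 and -0.12), and the replicate block gave 1 member (*Ccl25*), 1 pathway list gene and 94 of all genes below 0.1, and 33 below 0.05.

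Leaving out each mouse in turn gave 0 to 1 members at an adjusted p below 0.05 and 0 to 8 below 0.1. For all genes it gave 29 to 216 and 52 to 598, and for the pathway lists 0 to 6. Counts of 0 members below 0.1 came without control mouse 2 and without GSK503-treated mouse 2. The log2FC of *Ccr1*, -0.05, lay between -0.70 and 0.38 (0.38 without control mouse 1, 0.18 without control mouse 3), and that of *Cx3cl1*, 0.0047, between -0.0345 and 0.0277 (-0.0345 without control mouse 1, -0.0054 without GSK503-treated mouse 3). The causes were not tested. *Ccl28* and *Ccl25* were lower and *Ccl6* and *Ccl9* higher in all 16 alternatives. Their groups did not overlap, so leaving out a mouse, another pseudocount, filter or variance model, or the replicate block could not turn the sign. Only the other scalings and limma-voom could have turned it. The adjusted p of *Ccl9* was above 0.1 at pseudocounts of 0.01 (0.103) and 1 (0.112), and so was that of *Ccl25* with robust empirical Bayes (0.138). With 3 mice per group, wide intervals limit what the low members can show. By the length of the canonical transcript, an alternative chosen after seeing the data, 17 members in place of 15 had a mean of 1 or more per kb.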
